A study of Homo sapiens with 24 samples.

Results

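The genes described here are 45 genes of mitosis, chosen by symbol from lists of mitotic kinases, cyclins, kinesins and spindle proteins. They were taken from the 25082 genes of the deposited table, all 45 were found there, and all 45 were among the 20154 genes that passed the filter on low values. By role they were split into 12 cyclins and kinases with their regulators, 9 kinesins, 13 genes of the centromere and the spindle checkpoint, and 11 genes of the spindle, cytokinesis, anaphase and proliferation. The cells were SET2, a human cell line of megakaryoblasts that stems from a myeloproliferative neoplasm and needs JAK2 signalling to grow. Poly(A) RNA was sequenced in 24 libraries, 3 for each of 8 groups. In 4 groups SET2 cells had become persistent and were kept in a type I JAK inhibitor, with 1 line each for BMS911543 (selective for JAK2), CYT387 (momelotinib), INC424 (ruxolitinib) and SAR302503 (fedratinib). In 3 groups naive SET2 cells received INC424 and were taken at 48 h, received it and were taken at 4 h, or received DMSO as vehicle and were taken at 4 h. The last group was naive SET2 cells with nothing added. No concentrations are stated in the labels, and they do not say whether the libraries of a group came from separate cultures, so p-values measure the spread between these libraries, which may be technical.

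Entry into mitosis is driven by CDK1 bound to a B-type cyclin, with the Aurora and Polo-like kinases building the spindle and kinesin motors moving microtubules and chromosomes. The spindle checkpoint holds the anaphase-promoting complex and its activator CDC20 until every kinetochore is attached, after which securin and the B-type cyclins are destroyed. Most of these genes are transcribed in the G2 and M phases, when the MuvB complex with B-MYB and FOXM1 acts at promoter elements called CHR (cell cycle genes homology region) and the factor NF-Y acts at CCAAT boxes, so their RNA is abundant in dividing and scarce in resting populations. In bulk RNA, fewer cells in these phases and less of the RNA per cell cannot be told apart.

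Levels are the authors' normalised read counts, given per library or as mean ± SD (n = 3 per group), and differences are log2 differences of counts plus 1 fitted with limma across all genes, with two-sided p-values adjusted by the Benjamini-Hochberg method. The verbs rise, fall and differ are used for adjusted p below 0.05. Libraries held 21770721 to 36160750 reads assigned to genes. All 10 megakaryocyte markers were in the table. Together they took 0.219% of reads in library 2 of the CYT387 line, the lowest share of the 24, and 0.561% and 0.560% in libraries 1 and 3 of that line, with the first of these the highest share. Library 2 of the CYT387 line stood apart (Pearson's r of 0.83 and 0.81 with the other 2 libraries of its line across genes, against at least 0.95 for every other pair within a group), with 0.465% of reads (95% exact binomial interval 0.462% to 0.468%, counting error only) in 10 squamous epithelial markers and 0.697% (0.694% to 0.701%) in 10 stromal and macrophage markers. The next highest shares were 0.102% for the squamous markers, in library 3 of the SAR302503 line, and 0.0171% for the stromal ones. Of the stromal and macrophage markers TGFBI was highest in CYT387 library 2 (140037 normalised counts), followed by SPARC (23263) and FN1 (17180). LUM and CD68 did not stand out there, with 3.95 and 233, against 1.18 and 223 in library 1 and 0 and 349 in library 3. Lymphoid markers took at most 0.00433% of reads in any library.

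Promoters of the genes were read from RefSeq (GRCh38.p14, whereas the deposited table has no coordinates and its notes name hg19 and GRCh37), as 250 bases before to 50 bases after each annotated start, and 50 promoters of 38 of the 45 genes were matched. The CHR core TTTGAA, searched on both strands, was present in 31 of the 50 promoters (62.0%) and in 15.16% of all 35116 promoters in the table. Within the 120 bases before the start it was in 19 of 50 (38.0%), against 5.701% of all promoters, and CCAAT, also on both strands, was in 30 of 50 (60.0%), against 20.44%. The 120 bases before the start are shown for CCNB1, CCNB2, PLK1, PRC1, KIF4A, MKI67, CDC20, SPC25 and BUB1. The first 6 fell after 48 h of INC424 against DMSO and rose in the INC424 and SAR302503 lines against naive cells. The last 3 did not do both. MKI67, unlike the others shown, had its highest group mean after DMSO. Capitals mark TTTGAA and CCAAT, or their reverse complements TTCAAA and ATTGG.
CCNB1 (chr5:69167030-69167149, plus strand): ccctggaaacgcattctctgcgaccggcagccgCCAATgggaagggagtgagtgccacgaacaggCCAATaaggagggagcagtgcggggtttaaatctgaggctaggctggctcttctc
CCNB2 (chr15:59105026-59105145, plus strand): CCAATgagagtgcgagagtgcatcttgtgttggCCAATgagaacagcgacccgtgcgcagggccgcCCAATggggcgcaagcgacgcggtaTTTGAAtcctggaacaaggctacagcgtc
PLK1 (chr16:23678769-23678888, plus strand): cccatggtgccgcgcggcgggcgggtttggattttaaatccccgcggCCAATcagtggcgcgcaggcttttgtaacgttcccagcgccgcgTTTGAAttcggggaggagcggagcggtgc
PRC1 (chr15:90994536-90994655, minus strand): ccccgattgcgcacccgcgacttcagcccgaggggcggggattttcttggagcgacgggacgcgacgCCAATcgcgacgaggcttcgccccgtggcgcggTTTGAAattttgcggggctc
KIF4A (chrX:70289984-70290103, plus strand): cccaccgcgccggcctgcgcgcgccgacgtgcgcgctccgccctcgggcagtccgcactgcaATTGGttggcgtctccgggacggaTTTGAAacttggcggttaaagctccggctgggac
MKI67 (chr10:128126424-128126543, minus strand): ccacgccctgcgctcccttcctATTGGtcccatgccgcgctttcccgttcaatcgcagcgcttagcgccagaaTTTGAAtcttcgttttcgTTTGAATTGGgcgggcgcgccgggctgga
CDC20 (chr1:43358861-43358980, plus strand): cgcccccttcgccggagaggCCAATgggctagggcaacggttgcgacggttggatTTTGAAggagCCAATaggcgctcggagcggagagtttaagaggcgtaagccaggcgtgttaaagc
SPC25 (chr2:168890431-168890550, minus strand): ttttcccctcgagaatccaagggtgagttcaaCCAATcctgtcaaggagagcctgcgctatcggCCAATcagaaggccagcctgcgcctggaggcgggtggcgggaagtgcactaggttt
BUB1 (chr2:110678064-110678183, minus strand): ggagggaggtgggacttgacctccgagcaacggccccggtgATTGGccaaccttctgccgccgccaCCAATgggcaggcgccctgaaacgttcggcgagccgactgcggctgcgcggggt
CCNB2, PLK1 and MKI67 each held a TTTGAA that began 29 bases before the start, with a CCAAT box on either strand upstream of it. In MKI67 a reverse CCAAT box shared the last base of that TTTGAA, and another TTTGAA began 47 bases before the start. PRC1, KIF4A and CDC20 held a TTTGAA at 20, 34 and 65 bases before the start. CCNB1, SPC25 and BUB1 held 2 CCAAT boxes each and no TTTGAA in these 120 bases. These are matches of letters in a window and were not tested as binding sites. Only TTTGAA was searched for the CHR, so a gene without it may hold a variant of the element.

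Across the 8 groups the 45 genes were lowest after 48 h of INC424 and highest in the INC424 and SAR302503 lines. The group mean was lowest in INC424 48 h for 38 genes, and it was highest in the SAR302503 line for 24 and in the INC424 line for 17. Together the genes took 0.599% ± 0.0201 of reads in the INC424 line and 0.600% ± 0.0734 in the SAR302503 line, 0.427% ± 0.0203 in the BMS911543 line and 0.406% ± 0.0298 in the CYT387 line. After INC424 they took 0.275% ± 0.00372 at 48 h and 0.449% ± 0.00994 at 4 h, with 0.437% ± 0.0237 after DMSO and 0.357% ± 0.0284 in naive cells. The ratio of the highest to the lowest group mean ran between 1.58 for BUB3, which binds BUB1 at kinetochores, and 3.55 for CDK1. The plot of mean levels by library has the INC424 and SAR302503 lines above every other library, and INC424 48 h below every other library, in each of the 4 role classes. Naive library 1 lay above naive libraries 2 and 3 (mean log2 level over the 45 genes 0.18, against -0.088 and -0.092, relative to the naive mean), and SAR302503 library 3 lay below libraries 1 and 2 of its line (0.52, against 0.78 and 0.86).

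**Figure D1:**
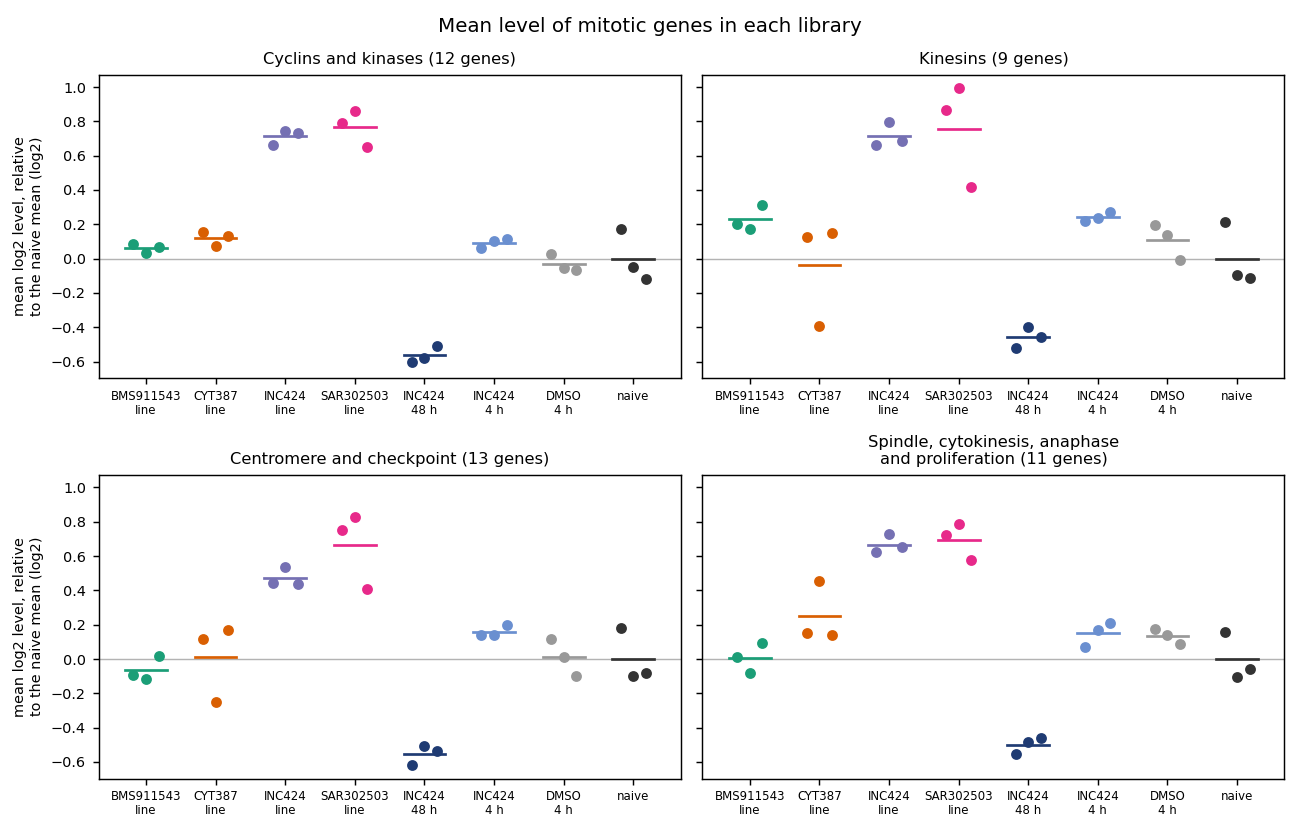
Mean log2 level of the genes of each role class in every library (vertical axis, relative to the mean of the 3 naive libraries), with 1 point per library and a bar at the group mean. The INC424 and SAR302503 lines lie above the other groups and INC424 48 h lies below them in all 4 panels; in CYT387 library 2 the kinesins are low (-0.39) and the spindle class is high (0.46).

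AURKA, the kinase of the centrosome and spindle poles, followed the set most closely, with Pearson's r of 0.98 between its log2 level and the median of the other 44 genes over the 24 libraries, a description of libraries that share groups and scaling. Its levels were 2129, 1918 and 2116 in the 3 libraries of the BMS911543 line, 2539, 2012 and 2487 in the CYT387 line, 3191, 3929 and 3718 in the INC424 line and 3640.4, 4047 and 2815 in the SAR302503 line. They were 1108, 1091 and 1274 after 48 h of INC424, 2165, 2413 and 2495 after 4 h of INC424, 2196, 2197 and 2070.1 after DMSO and 2396, 1898 and 1789 in naive cells. The 48 h libraries lay below all 21 others, and the INC424 and SAR302503 lines lay above all 18 others. KIF4A (a chromokinesin), TOP2A (the topoisomerase that separates sister DNA) and CCNA2 (cyclin A2) came next at 0.96 each. The least alike were the phosphatase CDC25B (0.39), CDC20 (0.48), the kinetochore subunit SPC25 (0.51), the checkpoint kinase BUB1 (0.53) and ECT2, which activates RhoA for cytokinesis (0.53, and 0.81 without CYT387 library 2).

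**Figure D2:**
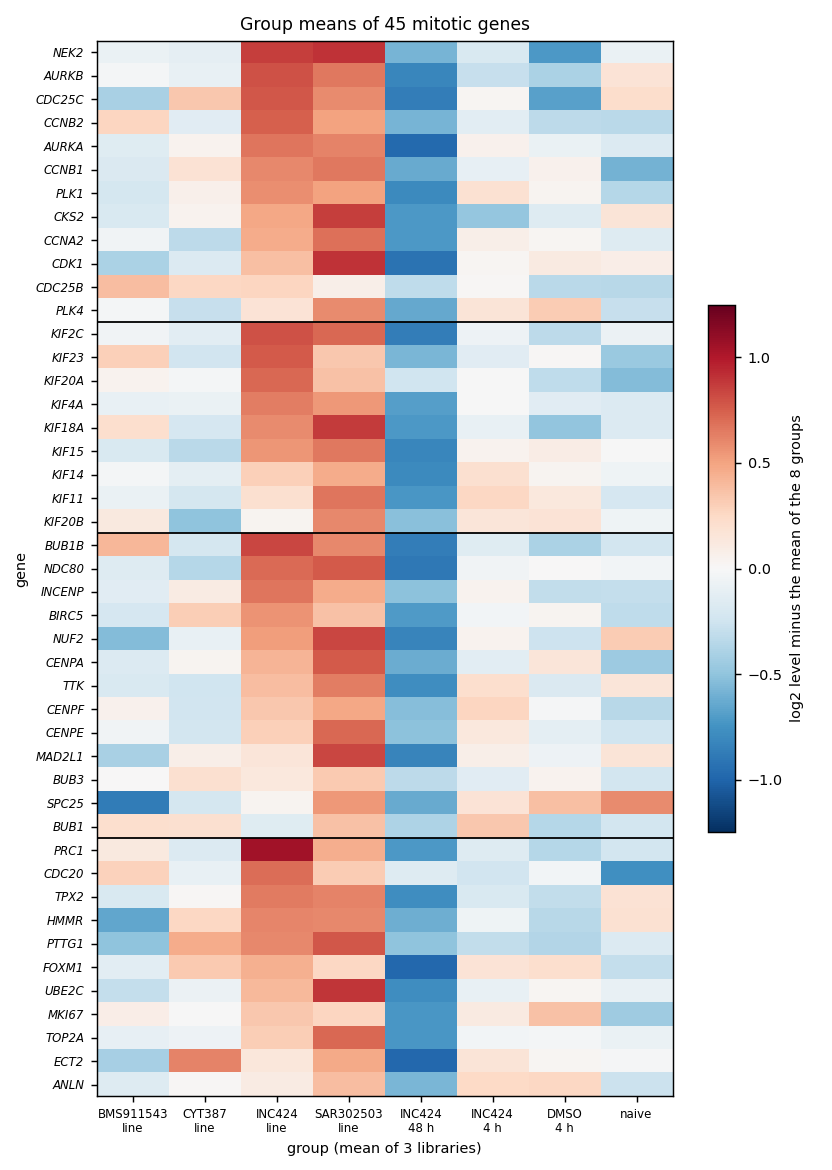
Group means of the 45 genes (rows, by role class) in the 8 groups (columns), coloured by log2 level minus the gene's mean over the groups. Red columns are the INC424 and SAR302503 lines and the blue column is INC424 48 h; SPC25 is highest in naive cells and CDC20 is lowest there.

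After 48 h of INC424, 33 of the 45 genes were lower than after DMSO and none was higher. Over all genes tested, 16.4% fell and 17.6% rose in this comparison. The median log2 difference of the 45 genes was -0.59, against 0.0038 over all genes tested. The 3 libraries of INC424 48 h lay below the 3 of DMSO, without overlap, for 35 of the 45 genes, and 29.2% of all genes tested did so. At an unadjusted p below 0.05 the limma fit still put 0 of the 45 higher at 48 h, and edgeR and DESeq2 on the recovered reads called 34 genes lower and 0 higher. DMSO was given for 4 h only, so the longer culture cannot be told apart from the inhibitor in this comparison.

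Of the 12 cyclins, kinases and their regulators, 9 fell. CDK1, the kinase that starts mitosis, had 1588, 1773 and 1616 normalised counts after 48 h of INC424 and 3783, 3344 and 3096 after DMSO. The groups did not overlap, and the gap between them was wider than the range within either (log2 difference -1.03 ± 0.13 SE, adjusted p = 2.8e-06). PLK4, the kinase of centriole duplication, fell by a similar amount (726 ± 19.6 against 1405 ± 106, log2 -0.95), as did AURKA (1158 ± 101 against 2155 ± 73.1, log2 -0.90). PLK1, the Polo-like kinase of entry, spindle and cytokinesis, was 2562, 2436 and 2443 after 48 h and 4019.7, 4393 and 4879.6 after DMSO, again without overlap (log2 difference -0.83 ± 0.14 SE, adjusted p = 6.5e-05). CCNA2 fell by 0.74, CCNB1 by 0.68, the small CDK-binding protein CKS2 by 0.56, AURKB, the kinase of the chromosomal passenger complex, by 0.42 and CCNB2 by 0.26 on the log2 scale. The phosphatases that activate CDK1 and the centrosome kinase NEK2 did not pass, with log2 differences of -0.17 for CDC25C, 0.02 for CDC25B and 0.14 for NEK2. CDC25C and NEK2 were themselves lower after DMSO than in naive cells (below). CDC25C had 208, 220.3 and 230.3 after 48 h and 277, 199.6 and 270.4 after DMSO, against 539, 437 and 425 in naive cells. Its small difference from DMSO therefore does not show that its level was kept at 48 h.

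Of the 9 kinesins, 7 fell. The largest log2 differences were -0.91 for KIF15 and -0.85 for KIF11, motors that push the spindle poles apart, and -0.83 for KIF14, a motor of cytokinesis. KIF11 had 1146, 1211 and 1166 counts after 48 h of INC424, against 2305, 2134 and 1940.5 after DMSO. The 48 h libraries were close to each other and far from those of DMSO (log2 difference -0.85 ± 0.16 SE, adjusted p = 0.000304). KIF20A, a motor of the cleaving midzone, stood at 1214, 1357 and 1504, against 1215, 1349.5 and 1301, and did not pass (log2 difference 0.07 ± 0.11 SE, adjusted p = 0.67), nor did KIF18A, which dampens chromosome movement (log2 -0.23).

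Of the 13 centromere and checkpoint genes, 9 fell. The 3 subunits of the microtubule-binding NDC80 complex in the set all fell, by 1.00 for SPC25, 0.89 for NDC80 and 0.56 for NUF2 on the log2 scale. The centromeric histone CENPA had 271, 363 and 372 counts, against 589, 564 and 568 after DMSO, without overlap (log2 difference -0.79 ± 0.13 SE, adjusted p = 9.1e-05). BIRC5 (survivin, of the passenger complex) and MAD2L1 (the checkpoint protein MAD2) each fell by 0.76. The checkpoint kinase BUB1 was 2354, 2482 and 2298 after 48 h and 2605, 2533 and 2121 after DMSO, which overlap, and its log2 difference of -0.02 did not pass. Neither did BUB3 (log2 -0.38, adjusted p = 0.051), the kinetochore motor CENPE (log2 -0.39) or INCENP, the scaffold of the passenger complex (log2 -0.20).

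Of the 11 genes of the spindle, cytokinesis, anaphase and proliferation, 8 fell, and they held the largest differences of the set. FOXM1, a transcription factor of the G2 and M programme, had 1890.2, 1891 and 2231 counts after 48 h of INC424, against 4165, 4799 and 4802 after DMSO. All 3 libraries at 48 h were far below those of DMSO (log2 difference -1.20 ± 0.18 SE, adjusted p = 2.1e-05). MKI67, which encodes the proliferation antigen Ki-67, had 4906, 4586 and 4486, against 9943, 10418 and 9463 (log2 difference -1.09 ± 0.13 SE, adjusted p = 1.8e-06), also without overlap. ECT2 fell by 1.00, ANLN (anillin, of the cleavage furrow) by 0.82, UBE2C (a ubiquitin-conjugating enzyme of the anaphase-promoting complex) by 0.79 and TOP2A by 0.70 on the log2 scale. CDC20, the activator of that complex, did not pass, with 3899, 3834 and 3955 after 48 h and 3797, 4256 and 4694 after DMSO (log2 difference -0.12 ± 0.15 SE, adjusted p = 0.58). PTTG1 (securin) did not pass either (log2 -0.15); it has near-identical copies in the genome, so its counts are uncertain here and below.

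**Figure D3:**
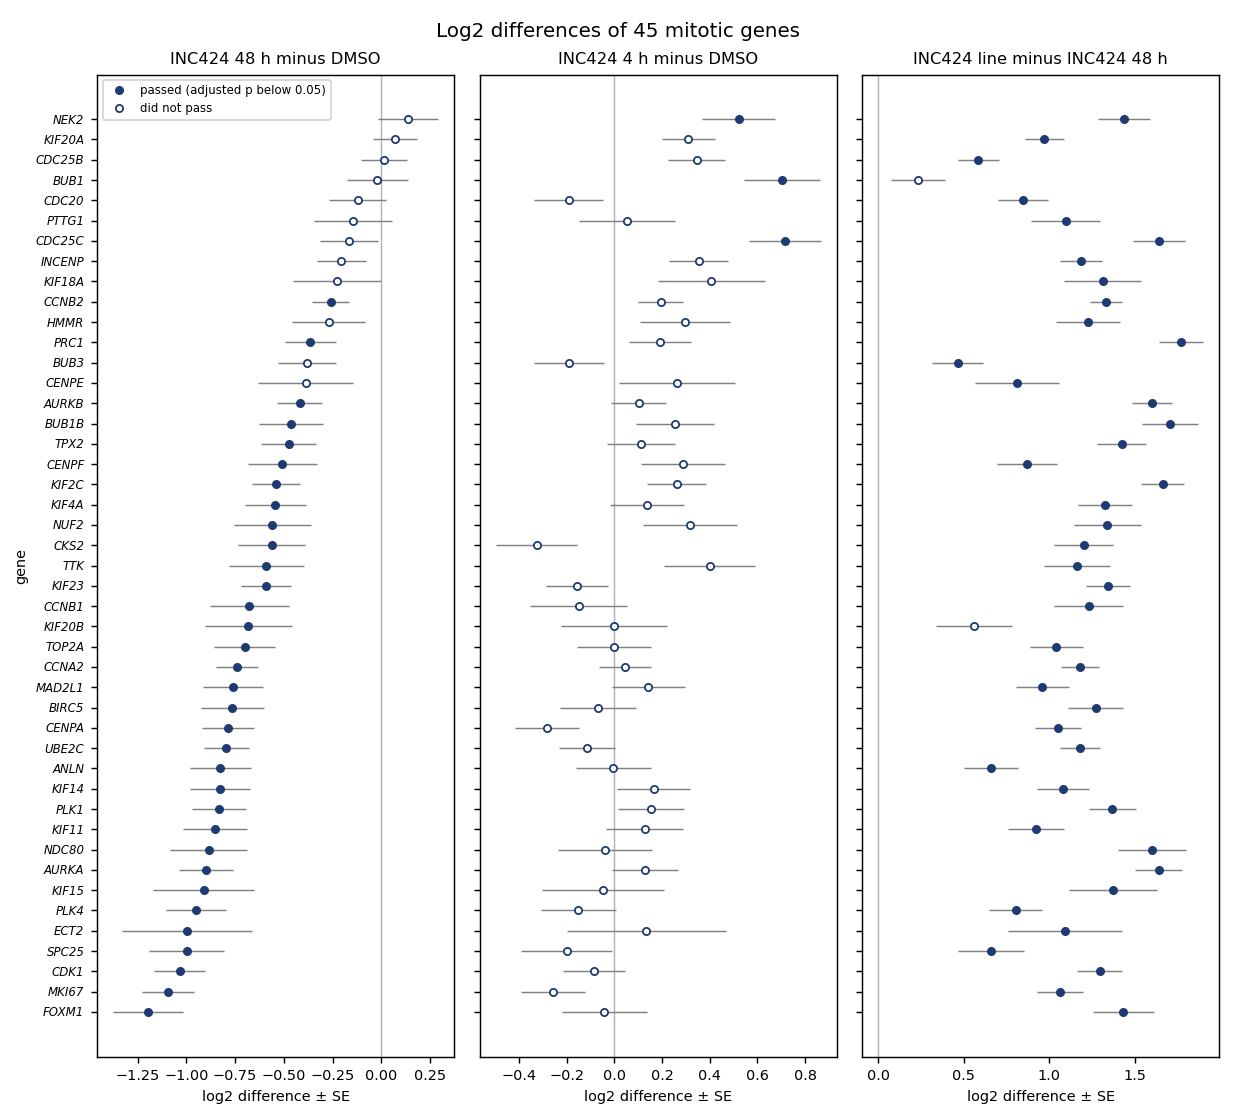
Log2 differences ± SE of the 45 genes for INC424 48 h minus DMSO, INC424 4 h minus DMSO and the INC424 line minus INC424 48 h, with filled points for genes that passed (limma, adjusted p below 0.05). At 48 h 33 genes lie below 0 and passed, at 4 h 3 lie above 0 and passed, and in the right panel 43 passed, all above 0; the panels share the DMSO or the 48 h libraries.

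At 4 h of INC424 few of the genes differed from DMSO. BUB1, CDC25C and NEK2 rose and none fell, that is 3 of 45 rose, with 4.88% rising and 3.49% falling over all genes tested. The 3 that rose are near that share, so this count says little about the set. BUB1 had 3747, 3918 and 4107 counts after 4 h of INC424 and 2605, 2533 and 2121 after DMSO, with all 3 INC424 libraries above the DMSO libraries (log2 difference 0.70 ± 0.16 SE, adjusted p = 0.0066). CDC25C was 355, 431 and 433, against 277, 199.6 and 270.4 (log2 difference 0.71 ± 0.15 SE, adjusted p = 0.0037), and NEK2 was 859, 738 and 896, against 592, 620.1 and 523 (log2 difference 0.52 ± 0.15 SE, adjusted p = 0.037). In naive cells the means were 467 for CDC25C and 899 for NEK2, above their means of 406 and 831 at 4 h. For BUB1 the naive mean of 2650 was below its mean of 3924 at 4 h. The median log2 difference of the 45 genes was 0.13, against -0.0075 over all genes tested. At an unadjusted p below 0.05 7 genes were higher and 1 was lower, and edgeR called 3 higher and 0 lower. The number of calls at 4 h moved with the fit more than in any other acute comparison. It was 6 higher and 0 lower with DESeq2 and also without CYT387 library 2, which enters only the shared spread, 10 higher and 2 lower with the 2 groups fitted alone, and 15 higher and 5 lower with sample quality weights.

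At 48 h of INC424, 35 of the 45 genes fell and none rose against 4 h of INC424, with a median log2 difference of -0.70. No vehicle was taken at 48 h, so longer culture and longer exposure to INC424 cannot be told apart here either. Over all genes tested 7.69% fell and 7.03% rose. At an unadjusted p below 0.05 limma put 0 of the 45 higher and 41 lower, and edgeR and DESeq2 also called 0 higher. The 2 groups did not overlap for 41 genes lower at 48 h, which held for 23.3% of all genes tested, and for 1 higher, CDC20 (25.0% of all genes tested). The 3 genes that had risen at 4 h had lower means at 48 h than at 4 h, with log2 differences between 48 h and 4 h of -0.88 for CDC25C and -0.72 for BUB1, which both passed, and -0.38 for NEK2, which did not (adjusted p = 0.10). TTK, the checkpoint kinase MPS1, had 764, 945 and 799 at 48 h and 1515, 1804 and 1653 at 4 h (log2 difference -0.99 ± 0.19 SE, adjusted p = 0.0012), and the 2 sets of libraries stood well apart. Against naive cells, the other group without inhibitor, 26 of the 45 genes fell at 48 h and 1 rose, with 11.4% and 8.67% over all genes tested. The gene that rose was CDC20, with 3899, 3834 and 3955 at 48 h and 2805, 2604 and 2303 in naive cells (log2 difference 0.60 ± 0.15 SE, adjusted p = 0.0051). CCNB1 fell against DMSO but not against naive cells, where its log2 difference was -0.02, and MKI67 did not pass against naive cells either (log2 -0.27, adjusted p = 0.17). CDC25C did not pass against DMSO, but every library at 48 h lay below every naive one (208, 220.3 and 230.3, against 539, 437 and 425).

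The 2 groups without inhibitor differed from each other in 15 of the 45 genes. After DMSO 9 were higher than in naive cells and 6 were lower, with 11.4% and 14.6% over all genes tested, and the groups did not overlap for 13 above and 8 below (23.8% and 24.5%). The 6 that were lower and both non-overlap counts are near the shares over all genes. These counts therefore say little about the set, and the members are given for their own values. MKI67 had 9943, 10418 and 9463 counts after DMSO and 6755, 5046 and 5192 in naive cells (log2 difference 0.82 ± 0.13 SE, adjusted p = 9.6e-05), and CDC20 had 3797, 4256 and 4694 and 2805, 2604 and 2303 (log2 difference 0.72 ± 0.15 SE, adjusted p = 0.00081). Both genes showed no overlap between the groups. CCNB1, CENPA, PLK4, ANLN, FOXM1, KIF23 and PLK1 were the other 7 that rose. CDC25C fell to 277, 199.6 and 270.4 after DMSO, against 539, 437 and 425 in naive cells (log2 difference -0.91 ± 0.15 SE, adjusted p = 0.00011), and NEK2, AURKB, NUF2, HMMR and TPX2 were also lower. HMMR and TPX2 act at the spindle poles, TPX2 as an activator of AURKA. A comparison with 1 of these groups therefore need not give the same genes as with the other.

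In the mean of the 4 persistent lines, 27 of the 45 genes rose and 1 fell against naive cells. Over all genes tested 9.79% rose and 12.0% fell. The median log2 difference was 0.39, against 0.0052 over all genes tested. It was 0.62 and 0.75 in the INC424 and SAR302503 lines alone and 0.12 and 0.03 in the BMS911543 and CYT387 lines (below). The p-values for the mean of the lines rest on the spread between libraries within groups and leave out the spread between the 4 lines. All 12 libraries of the lines lay above the 3 naive libraries for 6 genes (2.44% of all genes tested), namely CDC20, KIF20A, CENPA, CCNB2, MKI67 and CDC25B, and below them for 0 (3.96%). By role 8 of 12 cyclins and kinases rose, as did 6 of 9 kinesins, 7 of 13 centromere and checkpoint genes (1 fell) and 6 of 11 of the remaining class. The count depended on the naive libraries, since it was 16 rising and 1 falling without naive library 2 and 17 and 1 without naive library 3, which are the lower 2 naive libraries. Without CYT387 library 2 it was 31 and 1.

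CDC20 gave the largest difference (log2 1.05 ± 0.12 SE, adjusted p = 4.01e-07). It had 5408, 5309 and 5269 counts in the BMS911543 line, 4066, 4251 and 3936 in the CYT387 line, 6681, 6277 and 8221 in the INC424 line and 4773, 4209 and 7284 in the SAR302503 line, against 2805, 2604 and 2303 in naive cells. Every persistent library was above every naive one, and libraries within the SAR302503 line differed by more than those of the other lines. CCNB1 came next (log2 0.91 ± 0.16 SE, adjusted p = 0.00022), with 1362 ± 80.4 in the BMS911543 line, 1743 ± 805 in the CYT387 line (where library 2 alone had 2671), 2334 ± 136 in the INC424 line and 2433 ± 95.9 in the SAR302503 line, against 1022 ± 228 in naive cells. KIF20A (log2 0.83), KIF23, a motor of the central spindle (log2 0.74), CENPA (log2 0.72) and CCNB2 (log2 0.69) followed. SPC25 was the gene that fell, with 324, 363 and 353 in the BMS911543 line, 532, 449 and 655 in the CYT387 line, 659, 709 and 586 in the INC424 line and 1112, 1058 and 599 in the SAR302503 line, against 1169.7, 802 and 904 in naive cells (log2 difference -0.72 ± 0.15 SE, adjusted p = 0.0013). The 3 BMS911543 libraries were the lowest of all 24, whereas the first 2 SAR302503 libraries lay among the naive ones. The other 2 subunits of its complex did not pass (log2 -0.14 for NUF2 and 0.27 for NDC80).

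Against DMSO, 20 genes rose in the mean of the lines and 1 fell, with 17.0% and 16.4% over all genes tested, so the share that rose (20 of 45) was above that background. The 12 libraries of the lines lay above the 3 of DMSO for 6 of the 45 (6.12% of all genes tested) and below them for 0 (5.70%). The lines and DMSO differed most in NEK2 (2.14-fold, adjusted p = 4.4e-07) and CDC25C (log2 1.02 ± 0.12 SE, adjusted p = 9.6e-07), and SPC25 was again the gene that fell (log2 -0.52). MKI67 and FOXM1, which had risen against naive cells, did not pass against DMSO (log2 -0.20 and -0.01). CDC20 passed against both (log2 0.33 against DMSO). Both comparisons use the same 12 libraries of the lines, and the p-values of both leave out the spread between the lines.

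The lines differed from each other, and 39 of the 45 genes passed the F test over the 4 lines, against 47.1% of all genes tested. The numbers by class were 11 of 12 cyclins and kinases, 9 of 9 kinesins, 11 of 13 centromere and checkpoint genes and 8 of 11 of the remaining class. CDC25B, BUB1, BUB3, ECT2, FOXM1 and MKI67 did not pass. Against naive cells 8 genes rose and 6 fell in the BMS911543 line (10.4% and 14.2% of all genes tested), 11 rose and 1 fell in the CYT387 line (11.2% and 11.1%), 28 rose and 1 fell in the INC424 line (9.95% and 12.5%) and 37 rose and 0 fell in the SAR302503 line (8.70% and 10.6%). The median log2 differences of the 45 genes were 0.12, 0.03, 0.62 and 0.75 in that order of lines; with TMM or upper-quartile scaling the median of the CYT387 line turned to -0.0036 or -0.0081. In the SAR302503 line the limma fit put 0 genes lower at an unadjusted p below 0.05, and edgeR and DESeq2 also called 0 lower. All 4 comparisons share the 3 naive libraries. The 4 genes that rose in every line were CDC20, CDC25B, KIF20A and MKI67.

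**Figure D4:**
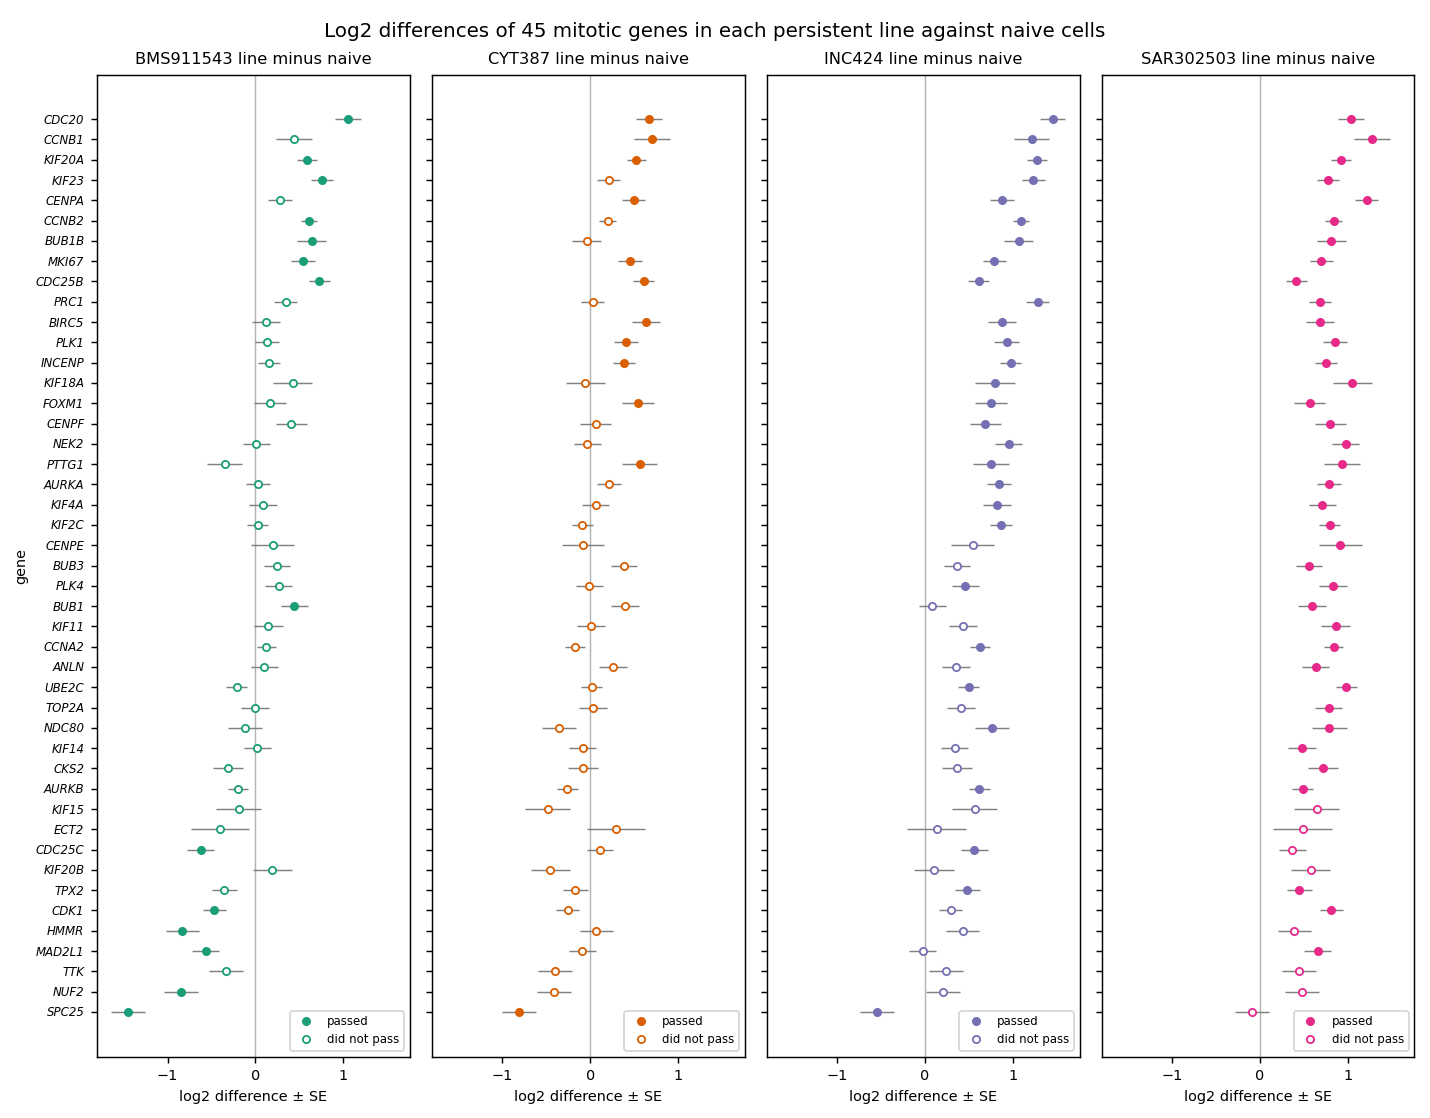
Log2 differences ± SE of the 45 genes in each persistent line minus naive cells, ordered by the mean of the lines, with filled points for genes that passed (limma, adjusted p below 0.05). Most genes lie to the right of 0 in the INC424 and SAR302503 panels (28 and 37 rose), while 8 rose and 6 fell in the BMS911543 panel and 11 rose and 1 fell in the CYT387 panel; the 4 panels share the naive libraries.

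In the SAR302503 line the rise covered 11 of 12 cyclins and kinases, 7 of 9 kinesins, 10 of 13 centromere and checkpoint genes and 9 of 11 of the remaining class. For 37 genes the libraries of the line lay above the naive ones without overlap, and for 0 below (14.6% and 16.6% of all genes tested). CCNB1 had 2432, 2530.0 and 2338 counts in the SAR302503 line and 1253, 1014 and 798 in naive cells, without overlap (log2 difference 1.27 ± 0.20 SE, adjusted p = 8.4e-05). CENPA had 774, 862 and 995, against 393, 337 and 397 (log2 difference 1.22 ± 0.13 SE, adjusted p = 6.5e-07). KIF18A (1289 ± 320.4 against 625 ± 187, log2 1.05), CDC20 (log2 1.04), UBE2C (log2 0.99) and NEK2 (log2 0.98) were the next largest. For KIF20B, a cytokinesis kinesin, library 3 of the line was below 2 naive libraries (2273, 2618 and 1125, against 1538, 1084 and 1205), and its log2 difference of 0.58 did not pass. That library also held the 0.102% of reads in squamous markers (95% exact binomial interval 0.101% to 0.103%), whose part in the lower levels was not tested. Leaving out SAR302503 libraries or naive libraries 1 at a time kept the number of genes called between 32 and 40 of 45.

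In the INC424 line 10 of 12 cyclins and kinases, 5 of 9 kinesins, 6 of 13 centromere and checkpoint genes (1 fell) and 7 of 11 of the remaining class rose. The libraries did not overlap for 34 genes above and 1 below naive cells (21.5% and 21.7% of all genes tested). CDC20 had the largest difference (log2 1.45 ± 0.15 SE, adjusted p = 9.6e-08). PRC1, which crosslinks microtubules of the anaphase midzone, had 9601, 9994 and 9438 counts in the INC424 line and 4029.6, 3912 and 3988 in naive cells, far apart in every library (log2 difference 1.28 ± 0.13 SE, adjusted p = 1.1e-07). KIF20A (2590.2, 2616 and 2756, against 1258, 1038 and 1016, log2 difference 1.27 ± 0.11 SE, adjusted p = 1.5e-08) and KIF23 (3386, 3737 and 3317, against 1378, 1568 and 1501, log2 difference 1.23 ± 0.13 SE, adjusted p = 2.1e-07) were next. ECT2, ANLN, KIF14 and KIF20B, which also act in cytokinesis, did not pass in this line. CCNB1 and CCNB2 rose by log2 1.21 and 1.09, and the checkpoint kinase-like protein BUB1B by 1.07. BUB1 did not pass (2653, 2853 and 2875, against 3076, 2430.4 and 2443, log2 0.08), nor did MAD2L1 (log2 -0.03). SPC25 fell (log2 difference -0.54 ± 0.19 SE, adjusted p = 0.045).

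In the BMS911543 line 8 genes were higher and 6 lower than in naive cells, and the groups did not overlap for 13 genes above and 12 below (22.5% and 23.9% of all genes tested). The 6 that fell and both non-overlap counts are close to the shares over all genes, so these counts say little about the set, and the members are given for their own values. BUB1, BUB1B, CCNB2, CDC20, CDC25B, KIF20A, KIF23 and MKI67 rose, and CDC25C, CDK1, HMMR, MAD2L1, NUF2 and SPC25 fell. CDC20 was 5408, 5309 and 5269, against 2805, 2604 and 2303 in naive cells (log2 difference 1.06 ± 0.15 SE, adjusted p = 9.5e-06), and KIF23 was 2477, 2342 and 2706, against 1378, 1568 and 1501 (log2 difference 0.76 ± 0.13 SE, adjusted p = 0.00014). CDC25B, which activates CDK1 at the centrosome, was 3076, 2674 and 2442, against 1509.6, 1803 and 1623 (log2 difference 0.73 ± 0.12 SE, adjusted p = 7.7e-05). All 3 genes were higher in each BMS911543 library than in each naive one. SPC25 gave the largest fall (log2 difference -1.45 ± 0.19 SE, adjusted p = 5.6e-06), and its complex partner NUF2 was 569, 641 and 637, against 1361, 1017 and 978 (log2 difference -0.85 ± 0.20 SE, adjusted p = 0.0026). HMMR was 576, 489 and 645, against 1273, 859 and 939.6 (log2 difference -0.83 ± 0.19 SE, adjusted p = 0.0022), and CDC25C was 287, 316 and 299.9, against 539, 437 and 425 (log2 difference -0.62 ± 0.15 SE, adjusted p = 0.0037). CDK1 had 2388, 2392 and 2413 in this line, against 3839.7, 3163 and 3021, with all 3 below the naive libraries (log2 difference -0.47 ± 0.13 SE, adjusted p = 0.011). The third subunit of the complex, NDC80, did not pass (log2 -0.12).

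In the CYT387 line the groups did not overlap for 10 genes above and 4 below naive cells (15.6% and 15.5% of all genes tested), and CCNB1, CDC20, BIRC5, CDC25B, PTTG1, FOXM1, KIF20A, CENPA, MKI67, PLK1 and INCENP rose and SPC25 fell. CDC20 was 4066, 4251 and 3936 in the CYT387 line and 2805, 2604 and 2303 in naive cells (log2 difference 0.67 ± 0.15 SE, adjusted p = 0.0023), and CDC25B was 2665, 2349 and 2498, against 1509.6, 1803 and 1623 (log2 difference 0.61 ± 0.12 SE, adjusted p = 0.000898). In both the 3 libraries of the line were close to each other. FOXM1 was 3984, 7471 and 3425 in the CYT387 line, ECT2 was 587, 2387 and 579 and KIF15 was 1728, 692 and 2175, so library 2 stood far from the other 2 libraries, upward in the first 2 genes and downward in KIF15. Library 2 is the one with the epithelial and stromal markers, and their part in these levels was not tested. Without library 2 the line had 10 genes that rose and 1 that fell (9.61% and 8.75% of all genes tested), and the median log2 difference of the 45 genes was 0.13 in place of 0.03. CCNB1 (log2 0.35, adjusted p = 0.1), FOXM1 (log2 0.20, adjusted p = 0.21) and PTTG1 (log2 0.26, adjusted p = 0.31) were then no longer called, and BUB1 (log2 0.64, adjusted p = 0.00079) and PRC1 (log2 0.26, adjusted p = 0.044) were. With the CYT387 and naive libraries fitted alone, limma called 0 of the 45 genes (7 higher and 1 lower at an unadjusted p below 0.05), whereas edgeR over all groups called 11 higher and 1 lower and DESeq2 13 and 1. Without naive library 2 the count was 6, and without naive library 3 it was 7, in place of 12.

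The tests between lines set the INC424 and SAR302503 lines apart from the other 2. Each of the 6 pairs was compared. In the BMS911543 line 29 genes were lower and 0 higher than in the INC424 line (16.5% of all genes tested differed either way), and 32 were lower and 0 higher than in the SAR302503 line (25.5%). In the CYT387 line 26 were lower and 0 higher than in the INC424 line (24.4%), and 33 were lower and 0 higher than in the SAR302503 line (26.3%). At an unadjusted p below 0.05 limma put 1 gene higher in the BMS911543 line than in each of the INC424 and SAR302503 lines, and 0 higher in the CYT387 line than in either. The INC424 and SAR302503 lines differed in 7 genes (12.7% of all genes tested), of which PRC1, KIF23 and KIF20A were higher in the INC424 line and MAD2L1, CDK1, BUB1 and UBE2C were lower. The BMS911543 and CYT387 lines differed in 12 (31.4% of all genes tested), of which 6 were higher and 6 lower in the BMS911543 line. BUB1B was the most different of the higher ones (log2 0.68 ± 0.16 SE, adjusted p = 0.0032) and PTTG1 of the lower ones (log2 -0.91 ± 0.20 SE, adjusted p = 0.0016), followed by HMMR (log2 -0.90 ± 0.19 SE, adjusted p = 0.00095). Without CYT387 library 2 the BMS911543 line had 4 genes higher and 9 lower than the CYT387 line, with log2 differences of 0.42 for BUB1B, -0.61 for PTTG1 and -0.76 for HMMR, which all passed. The CYT387 line then had 1 gene higher (BUB1) and 26 lower than the INC424 line, and 0 higher and 36 lower than the SAR302503 line. The BMS911543 line, without that library in the fit, had 1 gene higher (BUB1, log2 0.36, adjusted p = 0.020) and 33 lower than the INC424 line, and 1 higher (CDC25B, log2 0.31, adjusted p = 0.032) and 38 lower than the SAR302503 line.

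CDK1, CDC25C and MAD2L1 rose in 1 line and fell in another. CDK1 had 2388, 2392 and 2413 counts in the BMS911543 line, 3057, 2319.6 and 3051 in the CYT387 line, 3593, 4682 and 3993 in the INC424 line and 6299.9, 6388 and 4961 in the SAR302503 line. The BMS911543 and SAR302503 lines did not overlap, and their difference passed the test (log2 -1.29 ± 0.13 SE, adjusted p = 2.2e-07). MAD2L1 had 1096, 1111 and 1211 in the BMS911543 line and 2624, 3325 and 2165 in the SAR302503 line (log2 -1.23 ± 0.15 SE, adjusted p = 3.7e-06). CDC25C had 287, 316 and 299.9 in the BMS911543 line and 696, 697 and 666 in the INC424 line (log2 -1.19 ± 0.15 SE, adjusted p = 7.5e-06). In all 3 genes the BMS911543 line was the lower one. Concentrations are not stated, so these differences are between lines as grown, 1 line per inhibitor, and do not rank the inhibitors.

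**Figure D5:**
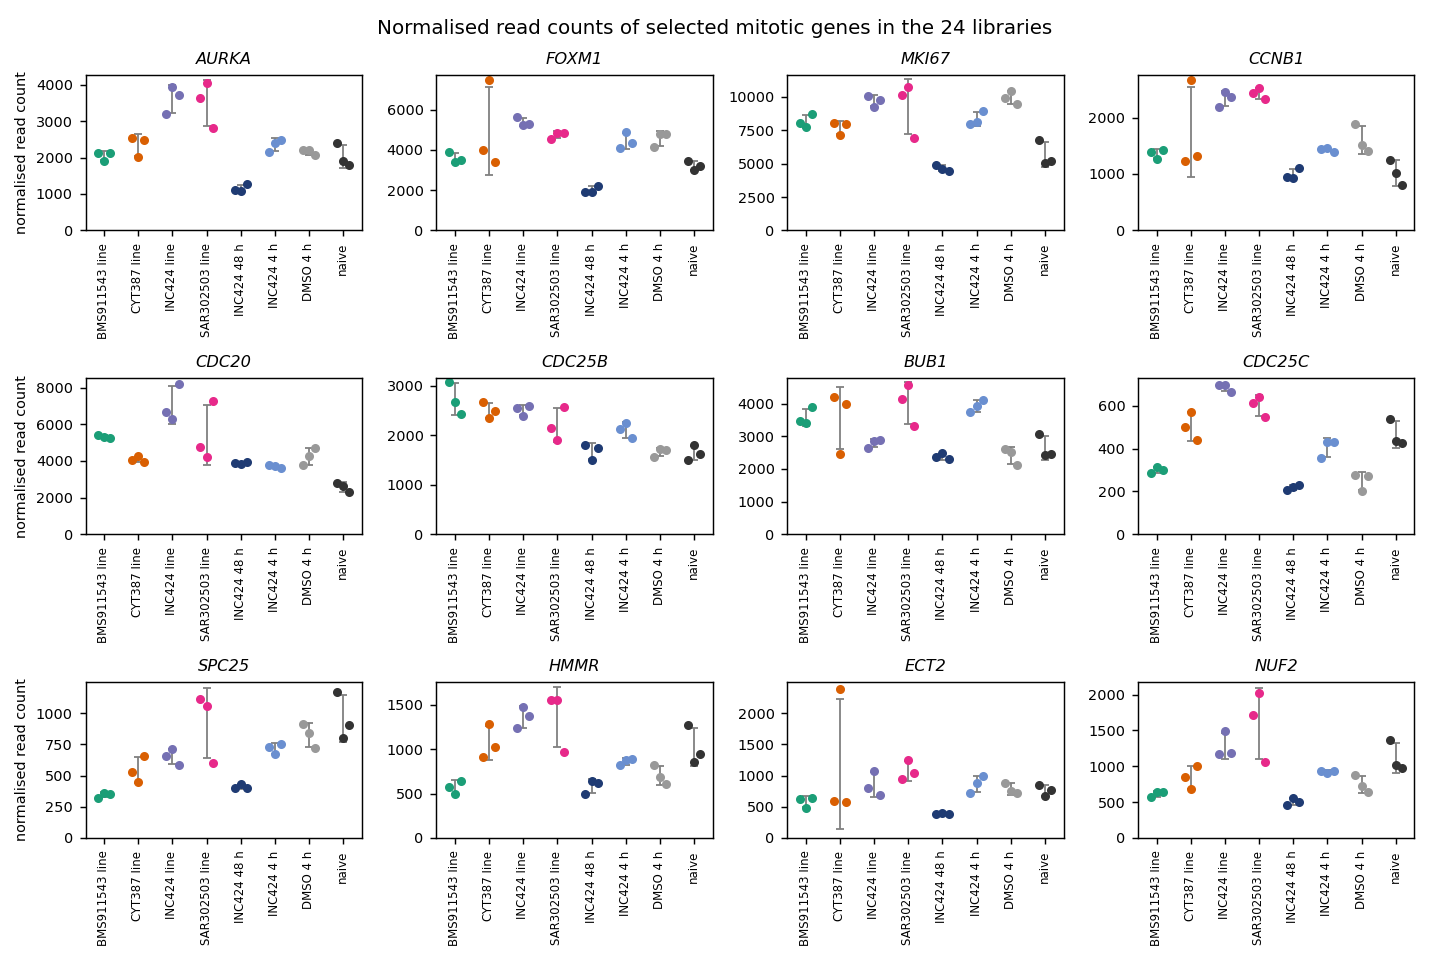
Normalised read counts of 12 of the genes in the 24 libraries, with 1 point per library and a bar of mean ± SD for each group; each panel has its own linear axis starting at 0. INC424 48 h is the lowest group for AURKA, FOXM1, MKI67, CDC25C and ECT2, the BMS911543 line is the lowest for SPC25 and HMMR, and CYT387 library 2 stands far above the rest in FOXM1 and ECT2.

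Set against 48 h of the same inhibitor in naive cells, the INC424 line had higher levels of 43 of the 45 genes, with 14.5% higher and 15.4% lower over all genes tested. None was lower, including at an unadjusted p below 0.05 and with edgeR (43 higher) and DESeq2 (44 higher). The median log2 difference was 1.19, against -0.024 over all genes tested. For all 45 genes the 3 libraries of the line lay above the 3 of INC424 48 h, and 26.6% of all genes tested did so. PRC1 was 9601, 9994 and 9438 in the INC424 line and 2862, 2867 and 2776 after 48 h of INC424, with no library near those of the other group (log2 difference 1.77 ± 0.13 SE, adjusted p = 8.2e-10). BUB1B was 6635, 6722 and 6393, against 1911, 2134 and 2019.7 (log2 difference 1.70 ± 0.16 SE, adjusted p = 4.7e-08), KIF2C, a microtubule depolymerase, was 9032, 8828 and 9610.2, against 2845, 2911 and 2915 (log2 difference 1.66 ± 0.12 SE, adjusted p = 9.8e-10), and CDC25C was 696, 697 and 666, against 208, 220.3 and 230.3 (log2 difference 1.64 ± 0.15 SE, adjusted p = 2.4e-08). In each of them the gap between the groups was wider than the range within the line. AURKA, AURKB and NDC80 had log2 differences of 1.64, 1.60 and 1.60. BUB1 (log2 0.23 ± 0.16 SE, adjusted p = 0.298) and KIF20B (log2 0.56 ± 0.22 SE, adjusted p = 0.063) did not pass. The line was grown in the inhibitor for an unstated time and was not set against a vehicle of its own.

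Other genes of the same processes were read from a list of 92 mitotic genes outside the set, of which all 92 were tested. After 48 h of INC424, 61 fell and 4 rose against DMSO (16.4% and 17.6% of all genes tested), with a median log2 difference of -0.60. Of 24 further kinetochore and centromere genes 19 fell, among them SKA3, of the complex that holds microtubule ends (299 against 914, log2 -1.61). Of 14 genes of condensin and cohesin release 9 fell, including CDCA5 (sororin, log2 -1.18), and of 20 entry regulators and transcription factors 15 fell, led by the phosphatase CDC25A (1527 against 5387, log2 -1.82). Of the 14 genes of the anaphase-promoting complex and its partners 5 fell and 1 rose (median log2 -0.25). The largest falls were of the inhibitor FBXO5 (EMI1, log2 -1.28) and the ubiquitin-conjugating enzyme UBE2S (log2 -1.19), and the core subunit CDC16 rose (log2 0.66). At 4 h 4 of the 92 rose and 3 fell, which is near the 4.88% and 3.49% of all genes tested. In the mean of the lines 35 rose and 1 fell against naive cells (9.79% and 12.0% of all genes tested, median log2 0.28). By line the counts were 13 and 5 in the BMS911543 line (10.4% and 14.2% of all genes tested), 16 and 3 in the CYT387 line (11.2% and 11.1%) and 49 and 2 in the INC424 line (9.95% and 12.5%), and 48 rose in the SAR302503 line (8.70%). The 13 that rose in the BMS911543 line are near the share over all genes. The INC424 line had 75 higher and 1 lower than INC424 48 h (14.5% and 15.4% of all genes tested, median log2 1.01).

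Genes of S phase, which precedes mitosis, were read from a further list. Of 28 such genes 26 fell after 48 h of INC424 against DMSO, where 16.4% of all genes tested fell (median log2 -0.96, against -0.59 for the 45 mitotic genes). At 4 h, where 3.49% of all genes tested fell, 3 had fallen, the ribonucleotide reductase subunit RRM2 (log2 -0.84), the cyclin CCNE1 (log2 -0.82) and the replication factor MCM10 (log2 -0.42), whereas none of the 45 mitotic genes fell then. Against DMSO the averaged lines had 10 of the 28 lower and 1 higher, with 20 of the 45 mitotic genes higher and 1 lower, against 16.4% lower and 17.0% higher over all genes tested. In DMSO itself 15 of the 28 were higher than in naive cells, against 11.4% of all genes tested. Against naive cells 7 of the 28 rose and 0 fell in the averaged lines (9.79% and 12.0% of all genes tested). The counts were 5 and 2 in the BMS911543 line (10.4% and 14.2%) and 4 and 1 in the CYT387 line (11.2% and 11.1%). They were 18 and 0 in the INC424 line (9.95% and 12.5%) and 16 and 0 in the SAR302503 line (8.70% and 10.6%). The INC424 line had 26 higher and 0 lower than INC424 48 h (14.5% and 15.4%). The median log2 there was 1.08, against 1.19 for the 45 genes. Whether the 2 lists differ was not tested.

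The genes with and without a TTTGAA in the 120 bases before the start were 19 each among the 38 with a promoter. Their median log2 differences were -0.56 and -0.56 for INC424 48 h against DMSO, 0.55 and 0.38 for the mean of the lines against naive cells, and 1.29 and 1.04 for the INC424 line against INC424 48 h. The ranges of both overlapped in each comparison. BUB1, SPC25 and CCNB1, shown above, are among those without it, and CDC20 and PRC1 are among those with it. The genes shown were chosen after their values were seen. Whether a TTTGAA goes with the differences was not tested.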

How the data were processed

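RNA of 24 SET2 libraries was read from 1 table of the whole series. Per the submitters' processing notes the builds were hg19 and GRCh37 and the tools named were DESeq (version 1.10.1), HTSeq (version 0.5.3p3) and BWA (version 0.7.5.1). The deposited values are a normalised signal, gene read counts that the authors divided by 1 size factor per library; dividing each library by its smallest step returned whole reads for 100% of values within 0.01, which says nothing for 3 libraries whose step is within 0.01 of 1. The table had 0 columns of no sample.

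Values were tested as log2(value + 1) in R 4.3.3 with limma 3.58.1, in 1 fit of the 8 groups (16 residual degrees of freedom), over the 20154 genes with at least 10 normalised counts in at least 3 libraries. P-values were adjusted by the Benjamini-Hochberg method over those genes. Log2 differences of low genes are understated by the added 1. edgeR 4.0.16 and DESeq2 1.42.0 were run on the recovered reads. Other pseudocounts, filters, scalings, a replicate block, a run-again term, sample quality weights and leaving out libraries were tried, and leaving out the 4 libraries richest in squamous reads was added after seeing the data. The run-again term stands for 9 of the 24 libraries that were flagged as run again. No library of naive cells or of the CYT387 line was among them, so the flag overlaps in part with comparisons against naive cells. The steps were tested on simulated data. No 2 libraries of a group agreed within sampling noise.

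The genes and all lists were chosen with earlier results of these data known. Any of the 45 could be named, with the 6 largest past the threshold and those against the majority in each comparison, and from other lists up to the 4 largest past the threshold. The genes whose sequences are shown were chosen after their values were seen. Shares of reads carry exact (Clopper-Pearson) 95% intervals.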

Additional observations from a re-analysis of the deposited data

Results flagged for a closer look

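Differences between groups that passed a test of the difference itself are gathered here with their values. Over the 4 persistent lines 39 of the 45 genes differed, against 47.1% of all genes tested. By pair, 12 differed between the BMS911543 and CYT387 lines (31.4% of all genes tested), 29 between BMS911543 and INC424 (16.5%), 32 between BMS911543 and SAR302503 (25.5%), 26 between CYT387 and INC424 (24.4%), 33 between CYT387 and SAR302503 (26.3%), and 7 between INC424 and SAR302503 (12.7%). The counts of 12 and 7 are near or below the share over all genes. INC424 48 h and INC424 4 h, compared directly with each other, differed in 35 genes (7.69% of all genes tested fell and 7.03% rose). No vehicle was taken at 48 h, so longer culture and longer exposure cannot be told apart in this difference.

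CDK1, CDC25C and MAD2L1 rose in 1 line and fell in another against the same naive libraries. CDK1 differed by a log2 of -1.29 between the BMS911543 and SAR302503 lines, MAD2L1 by -1.23 between the same lines, and CDC25C by -1.19 between the BMS911543 and INC424 lines. Single libraries within groups of 3 were not tested gene by gene for outlying values.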

How the results depend on the processing

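Numbers of the 45 genes called were within 1.5 times the reported ones under other pseudocounts, filters, scalings, the run-again term and edgeR in all 13 comparisons. INC424 4 h against DMSO (3 genes) gave 12 with the compared groups alone, 20 with sample quality weights, 6 with DESeq2 and 10 without the 4 libraries richest in squamous reads. Sample quality weights gave 35 for the mean of the lines against DMSO (21 reported), 30 for the BMS911543 line (14), 23 for the CYT387 line (12) and 29 for DMSO against naive cells (15). The BMS911543 line gave 24 without the 4 libraries, and the CYT387 line gave 0 with the compared groups alone. With weights KIF2C and CENPE in the CYT387 line turned to log2 0.16 and 0.37, in place of -0.09 and -0.08. The cause was not tested.

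Leaving out 1 library at a time gave 23 to 34 for INC424 48 h against DMSO (33 reported), 2 to 6 for 4 h (3), 29 to 40 for 48 h against 4 h (35), 21 to 31 for 48 h against naive cells (27), 17 to 32 for the mean of the lines against naive cells (28) and 16 to 26 against DMSO (21). By line it gave 13 to 19 for BMS911543, 6 to 12 for CYT387, 25 to 35 for INC424 and 32 to 42 for SAR302503. It gave 40 to 44 for the INC424 line against INC424 48 h, 10 to 19 for DMSO against naive cells and 38 to 43 among the lines.

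Replicate numbers did not pair the libraries, since 3 of 42 correlations of same-numbered deviations were above 0.1 and 8 of 42 libraries correlated best with their own number. With a replicate block 33 genes were called for INC424 48 h against DMSO, 3 at 4 h, 34 for 48 h against 4 h, 27 for 48 h against naive cells, 29 and 21 for the mean of the lines against naive cells and DMSO, 13, 12, 29 and 37 for the 4 lines in the order above, 43 for the INC424 line against 48 h, 14 for DMSO against naive cells and 39 among the lines. Of the single-gene values under all settings, 343 newly passed, 340 no longer passed and 2 turned round, against 10790 that kept direction and call. With 3 libraries a group, a difference that did not pass is not shown to be absent.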

Other observations

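E2F7, a repressor of genes of the G1 to S transition, had the largest log2 difference from naive cells in each line among the mitotic and S phase genes that were named outside the set of 45. It averaged 63.5 normalised counts in the BMS911543 line, 212 in the CYT387 line, 510.1 in the INC424 line and 386 in the SAR302503 line, against 18.9 in naive cells. The log2 differences of 1.70, 3.21, 4.71 and 4.31 all passed (limma, adjusted over all genes tested). It averaged 47.4 after 48 h of INC424 and 125 after DMSO (log2 -1.38), and DMSO itself was above naive cells (log2 2.66), so its level differed between the groups without inhibitor too. MYBL2, which encodes B-MYB, averaged 7266 in the INC424 line and 3747 in naive cells (log2 0.96). NUSAP1, which binds spindle microtubules, was higher in the BMS911543 line (4549 against 2884, log2 0.66) and in the INC424 line (7153 against 2884, log2 1.31). ZWINT, a kinetochore protein, was lower in the BMS911543 line (3349 against 5651, log2 -0.75), as SPC25 and NUF2 were. Of the 24 kinetochore and centromere genes listed with ZWINT, 6 rose and 5 fell in that line (median log2 0.09). Over all genes tested 10.4% rose and 14.2% fell. In the CYT387 line WEE1, the kinase that holds CDK1 inactive, was lower (1643 against 2983, log2 -0.88). In the same line ANAPC11 and FZR1, of the anaphase-promoting complex, were higher (log2 1.35 and 1.08) with large standard errors. Library 2 of the line had the high shares of epithelial and stromal markers, and their part in these differences was not tested.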
